A study of Mus musculus with 26 samples.

Results

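Open chromatin was compared between 2 kinds of mouse cochlear supporting cells, 48 h after Notch signalling was blocked in culture. The material is 4 ATAC peak lists, 2 from permissive and 2 from nonpermissive cells, out of 26 samples in the series. Merging the peaks of these 4 lists wherever they overlapped by at least 1 bp, on chromosomes 1 to 19 and X, gave 295548 regions. All groups came from cochleae of mice at postnatal day 1, kept as organ cultures in medium with EGF and FGF. Permissive cells had been treated with DAPT, which blocks gamma-secretase and with it Notch cleavage, and were sorted as positive for the lineage marker Lfng-CreER/TdT (Lfng-CreET/TdT in the sample labels) and for Atoh1-GFP. Nonpermissive cells came from DAPT cultures too, and their labels list Lfng-CreER/TdT as the only marker. Whether Atoh1-GFP-positive cells were gated out of them is not stated. Control cells were treated with the solvent DMSO and carried Lfng-CreER/TdT. Both DAPT groups therefore share drug, age, time and lineage marker, and differ by the Atoh1-GFP gate of the permissive cells. RNA was measured in 3 permissive, 3 nonpermissive and 2 control samples at 48 h, and the histone mark H3K27ac in 2 samples per group. The strain, the number of cochleae per sample and the construct behind Atoh1-GFP are not given in the labels used here, and whether replicates are biological is not stated. The tests therefore measure differences against a spread that may be technical.

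Supporting cells surround the hair cells of the organ of Corti, and Notch signalling from hair cells holds them in their fate. When Notch is blocked shortly after birth, some supporting cells switch on ATOH1, the basic helix-loop-helix factor that starts hair cell differentiation, and turn into hair cells. ATAC marks DNA that the Tn5 transposase can reach, which is mostly promoters and enhancers, and H3K27ac marks the active ones. ATOH1 and related factors bind E-boxes, short motifs of the form CANNTG.

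The sequences below are examples from promoters with a peak in the lists of 1 fate. They were chosen after their values were seen, hold an E-box and have RNA that goes with their class. They are thus not typical of such promoters. For example, Insc and Zmynd10 had a match in regions of the nonpermissive lists but higher RNA in permissive cells, and are not printed. A promoter window is here the 250 bases before and 50 bases after a gene start in RefSeq (GRCm38.p6, the build mm10). Each sequence is the coding strand, 5′ to 3′, lies upstream of the gene start and inside a region of its class, and has 1 match to either of 2 E-boxes in capitals. These are CAGATG, which reads as CATCTG when it lies on the opposite strand. The other E-box marked is CAGCTG, and E-boxes with other cores are left in lower case. The first 4 lay in regions with a peak in both permissive lists and in neither nonpermissive list. They belong to Nhlh1, a helix-loop-helix factor of young neurons and hair cells (chr1:172057767-172057826, minus strand), Dll3, a Notch ligand homologue that acts inside the cell (chr7:28301786-28301845, minus strand), Sucnr1, the succinate receptor (chr3:60081688-60081747, plus strand), and Rph3a, a synaptic vesicle protein (chr5:121008554-121008613, minus strand). The last 3 lay in regions with the reverse pattern. They belong to Tecta, which encodes alpha-tectorin of the tectorial membrane (chr9:42399973-42400032, minus strand), Tmem79 (chr3:88334573-88334632, minus strand) and Ogn, a small matrix proteoglycan (chr13:49607826-49607885, plus strand).
Nhlh1: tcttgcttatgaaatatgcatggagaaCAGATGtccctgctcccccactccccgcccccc
Dll3: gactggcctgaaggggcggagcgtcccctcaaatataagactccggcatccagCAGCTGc
Sucnr1: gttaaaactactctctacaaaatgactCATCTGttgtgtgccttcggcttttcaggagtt
Rph3a: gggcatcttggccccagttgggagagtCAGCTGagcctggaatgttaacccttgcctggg
Tecta: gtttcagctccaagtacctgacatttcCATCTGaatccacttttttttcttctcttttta
Tmem79: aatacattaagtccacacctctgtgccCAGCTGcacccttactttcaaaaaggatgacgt
Ogn: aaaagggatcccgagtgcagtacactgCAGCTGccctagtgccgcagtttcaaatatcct

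The 4 lists differed in length and strength within groups, and this bears on every count. After removal of other chromosomes, permissive 1 held 98201 peaks, permissive 2 held 209627, nonpermissive 1 held 128933 and nonpermissive 2 held 154805. The deposited fold enrichment (the authors' ratio of a peak's signal to its background) had medians of 2.71, 3.82, 2.69 and 3.54 in that order. Replicate 1 was thus the weaker of both groups, and permissive 1 had the shortest list. The 2 control lists held 159261 and 121088 peaks. RNA libraries held 2165340 to 4896371 counts; the depth behind the peak lists is unknown. In RNA, all 12 hair cell markers examined (Atoh1, Pou4f3, Gfi1, Barhl1, Lhx3, Myo7a, Myo6, Pcdh15, Cdh23, Espn, Otof and Calb2) were higher in permissive cells, and 7 of 12 supporting cell markers (Sox9, Sox10, Hey1, Jag1, Gjb2, Gjb6 and Tecta) were lower. These are bulk samples of sorted cells, in which fewer cells of a type and less RNA or signal per cell cannot be told apart.

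The regions were sorted by presence. Permissive-only regions, with a peak in both permissive lists and no nonpermissive list, numbered 11510, or 3.89% of all merged regions. Nonpermissive-only regions, the reverse, numbered 7894, or 2.67%. A further 28132 regions (9.52%) were open in all 4 lists. Most of the rest were seen in a single list: 80917 in permissive 2, 44284 in nonpermissive 2, 44225 in nonpermissive 1 and 30481 in permissive 1. With 2 samples against 2 an exact two-sided permutation test of a single region cannot go below 0.33, so presence is described by counts. With each list held to its best 98201 peaks, the counts were 10470 permissive-only and 8944 nonpermissive-only. Without permissive 1, permissive 2, nonpermissive 1 or nonpermissive 2, where 1 list stands for its group, permissive-only regions numbered 92785, 43411, 13044 and 18298, and nonpermissive-only regions 8586, 23942, 52817 and 53275.

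In the stronger library of each group, the median fold enrichment was higher for permissive-only than for nonpermissive-only regions. Between the same libraries, regions open in all lists differed in the same direction. For permissive-only regions the median fold enrichment was 2.80 in permissive 1 and 5.82 in permissive 2. For nonpermissive-only regions it was 2.69 in nonpermissive 1 and 3.74 in nonpermissive 2. Both classes lay below the regions open in all lists, whose medians were 3.71, 9.01, 4.29 and 7.15 in permissive 1, permissive 2, nonpermissive 1 and nonpermissive 2. Median widths were 394 bp for permissive-only, 326 bp for nonpermissive-only and 703 bp for regions open in all. Fold enrichment is relative to each library's own background, so these heights are not compared by a test.

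Both classes lay mostly away from promoters. Within 1 kb of a protein-coding gene start lay 4.21% of permissive-only regions (95% Wilson interval 3.85 to 4.59%), 5.90% of nonpermissive-only regions (5.40 to 6.44%) and 43.4% of those open in all lists, against 8.19% of all merged regions. Of unclassed regions, neither in these classes nor open in all lists, 4.45% lay there. Elsewhere inside genes lay 55.0% of either class, and between genes 40.8% and 39.1%. For all merged regions these shares were 50.2% inside and 41.6% between genes. The median distance to the nearest gene start was 36400 bp for permissive-only regions and 4381 bp for those open in all. It was 36542 bp for unclassed regions and 32727.5 bp for all merged regions. In distance and in the share at gene starts, permissive-only regions were thus close to unclassed ones. Intervals over regions cover counting error only. The nonpermissive-only share at gene starts was 10.3% without permissive 2 and 3.77% without nonpermissive 2.

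The control lists, which were not used to sort the regions, separated the classes. Of permissive-only regions 19.1% held a peak in control 1 and 9.99% in control 2, and 75.6% in neither. Of nonpermissive-only regions 67.8% held a peak in control 1 and 46.6% in control 2, and 26.4% in neither. Regions open in all 4 lists were open in the controls at 96.8% and 89.4%. Of all merged regions 66.4% had a peak in neither control, and of regions outside these 3 classes 74.5%. The permissive-only share was thus close to that of unclassed regions, and the nonpermissive-only share lay below it. Control 1 had the longer list of both.

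H3K27ac, measured in other samples of the same gates, followed the classes in every library. Permissive-only regions overlapped an H3K27ac peak at 59.3% in permissive 1 and 20.7% in permissive 2, against 15.1% and 4.27% in the nonpermissive libraries and 5.54% and 5.11% in the controls. Nonpermissive-only regions overlapped at 53.8% and 23.8% in the nonpermissive libraries, against 17.9% and 9.55% in the permissive libraries and 28.4% and 26.5% in the controls. Unclassed regions overlapped at 17.0% and 6.31% in permissive 1 and 2 and at 15.6% and 5.31% in nonpermissive 1 and 2. In the nonpermissive libraries permissive-only regions were thus close to unclassed ones. The H3K27ac lists of replicate 1 covered 87.6 Mb (permissive) and 79.2 Mb (nonpermissive), and the other 4 lists 22.5 to 27.1 Mb, so shares are compared between classes within a list. Regions acetylated in both permissive and no nonpermissive library made up 1540 (13.4%) of the permissive-only and 36 (0.456%) of the nonpermissive-only class. The reverse acetylation was seen at 929 (11.8%) of the nonpermissive-only and 36 (0.313%) of the permissive-only regions. Over all merged regions these patterns made up 2.08% and 1.80%. Acetylation was more frequent at taller peaks: from the lowest to the highest quartile of fold enrichment in permissive 2, the share of permissive-only regions with H3K27ac went from 33.9% to 85.8% in permissive 1, while in nonpermissive 1 it was 14.6% and 14.99%. Without permissive 1 or permissive 2 in the ATAC lists, the mean H3K27ac share of permissive-only regions over both permissive libraries was 17.6% and 14.4%, against 39.97% with all lists. Without nonpermissive 1 or nonpermissive 2, that of nonpermissive-only regions was 15.5% and 10.6%, against 38.8%. Over all merged regions of the 4 lists, H3K27ac shares were 23.2% and 10.7% in permissive 1 and 2. In nonpermissive 1 and 2 they were 21.3% and 9.49%. With 1 list of the own group left out, the class means thus fell within the range of all merged regions.

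**Figure D1:**
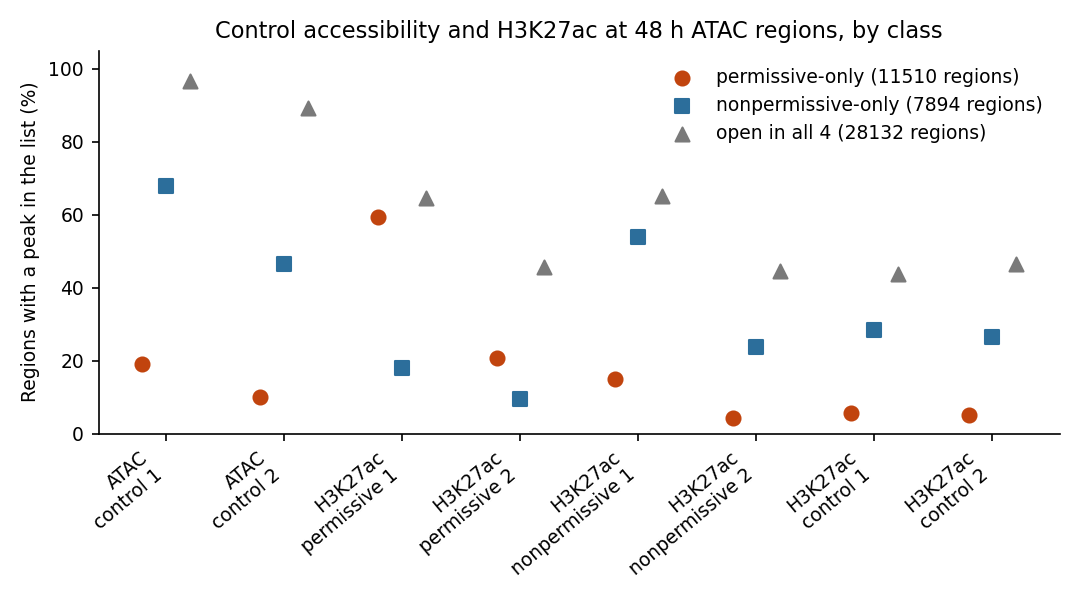
Share of regions (%, vertical axis) that hold a peak in each of 2 control ATAC lists and 6 H3K27ac lists (horizontal axis), for permissive-only regions (circles), nonpermissive-only regions (squares) and regions open in all 4 ATAC lists (triangles). Permissive-only regions stand above nonpermissive-only regions in both permissive H3K27ac lists and below them in all 6 others.

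Regions were assigned to the nearest protein-coding gene start within 100 kb. Of 21631 genes, 5599 (25.9%) had at least 1 permissive-only and 4459 (20.6%) at least 1 nonpermissive-only region. Over all assigned regions, 3.84% were permissive-only and 2.81% nonpermissive-only. Lists of genes were read against these shares, as counts.

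Regulators of hair cell fate had a permissive-only share above that of all assigned regions. Of 18 hair cell transcription factors, 13 had a permissive-only region, against 25.9% of all genes. The number of regions per gene was not adjusted for, here or in the lists below. These permissive-only regions made up 40 of the list's 408 (9.80%), against 15 (3.68%) nonpermissive-only. The list includes the splicing factor Srrm4, which had 6 of the 40. Of the 40 permissive-only regions, 37 (92.5%) had no peak in either control, against 74.5% of all assigned permissive-only regions, and 17 (42.5%) were acetylated in both permissive and no nonpermissive library, against 14.1% of all assigned permissive-only regions. None of the 15 nonpermissive-only regions had the reverse acetylation. In RNA, 12 of the 18 factors were higher and 2, Ikzf2 (adjusted p up to 0.0613 without 1 sample) and Isl1, lower in permissive cells, where 6.88% of 12225 genes tested were higher and 6.51% lower.

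At Atoh1 the gene itself was open in both fates. The region over its start (chr6:64728609-64729905) had a fold enrichment of 5.97 and 7.49 in permissive 1 and 2 and 4.29 and 6.12 in nonpermissive 1 and 2, and limma gave a log2 difference of 0.33 ± 0.34 (SE) with an adjusted p of 0.763. Its groups overlapped. The difference lay far downstream: at chr6:64823076-64823864, 93951 bp from the start and between genes, the permissive lists had 7.51 and 17.6 and the nonpermissive and control lists no peak, and H3K27ac was called in both permissive libraries alone. At chr6:64799218-64799991, 70093 bp from the start, permissive values were 9.62 and 16.2 and nonpermissive values 4.35 and 7.34, with no overlap. There the log2 difference was 1.13 ± 0.27 (SE, adjusted p = 0.0203), and it lost the threshold without permissive 1, nonpermissive 1 or nonpermissive 2. Atoh1 RNA was at 804, 1008 and 635 CPM in permissive and 30.2, 41.1 and 67.2 CPM in nonpermissive samples (log2 fold change 4.14 ± 0.46, adjusted p = 0.000115). Since the gate reads an Atoh1 reporter, this gene is tied to the sort. The construct of the reporter is not given, so whether it carries sequence of this locus that could add to these peaks is not known.

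Other genes of the hair cell transcription factor list had permissive-only regions too, some of them close to the gene start. Gfi1, a zinc finger repressor that hair cells need to survive, had a permissive-only region 10714 bp from its start (chr5:107713022-107713629) with fold enrichments of 6.67 and 12.6, while the region 64 bp from its start was open in all 4 lists. Pou4f3, a POU factor of hair cell maturation, had 5 permissive-only regions within 57 kb, none open in a control. The nearest, 1181 bp from the start, had values of 2.45 and 5.44 and acetylation in both permissive libraries alone. Pou4f3 also had 2 nonpermissive-only regions; that inside the gene (3.06 and 2.95) carried H3K27ac in both permissive and no nonpermissive library. Barhl1, a homeobox factor of hair cell maintenance, had 4 permissive-only and 1 nonpermissive-only region. A region 7105 bp from its start (chr2:28923773-28924235), open in all lists, had 8.61 and 12.6 in permissive against 2.10 and 4.32 in nonpermissive libraries, a log2 difference of 1.78 ± 0.34 (adjusted p = 0.00547). It missed the threshold without permissive 1 or nonpermissive 1. Lhx3, a LIM homeobox factor, had 3 permissive-only regions and 1 nonpermissive-only region. The nearest permissive-only region lay 417 bp from its start with values of 3.35 and 3.69. Insm1, a transcriptional regulator in nascent outer hair cells and neurons, had 3 permissive-only and 2 nonpermissive-only regions, with 3.45 and 4.69 in the permissive-only region over its start. Srrm4, a splicing factor of neurons and hair cells, had 6 permissive-only regions and no nonpermissive-only one. RNA of all 6 genes was higher, from a log2 fold change of 4.70 ± 0.95 for Insm1 to 7.61 ± 0.72 for Lhx3.

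Genes of the hair bundle and the synapse followed. Of 40 such genes, 29 had a permissive-only region, against 25.9% of all genes. These regions made up 59 of the list's 739 (7.98%), against 3.84% of all assigned regions. Nonpermissive-only regions made up 18 (2.44%), against 2.81%. RNA was higher for 31 of 38 tested, against 6.88% of all genes tested, and lower for none. Myo7a, the myosin of the tip link complex, had a permissive-only region inside the gene, 3212 bp from its start (chr7:98105384-98106036), with 7.71 and 13.5, acetylated in both permissive libraries alone and open in control 1. Myo7a RNA was at 279, 374 and 305 CPM in permissive and 6.42, 10.3 and 12.2 CPM in nonpermissive samples. Atp2b2, the calcium pump of stereocilia, had 6 permissive-only regions and 1 nonpermissive-only one. Myo6, Otof (the otoferlin of the ribbon synapse), Ptprq and Cdh23 (the cadherin of the tip link) each had 4 and no nonpermissive-only region. Myo15 was an exception with 0 permissive-only and 2 nonpermissive-only regions, although its RNA was higher (log2 fold change 7.74). Cib2 was another, with 0 and 1 and higher RNA (log2 fold change 4.28). A further 9 genes of the list, among them Tmc1, Slc17a8 and Whrn, had no region of either class.

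**Figure D2:**
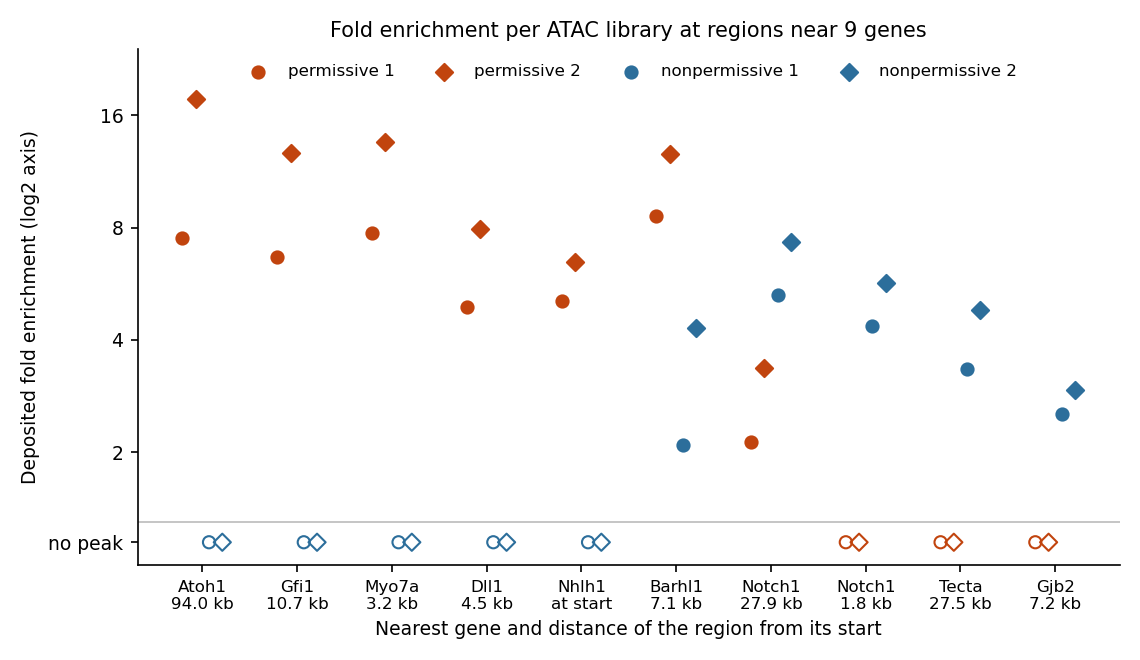
Deposited fold enrichment (vertical axis, log2 scale) of 10 regions near 9 genes in permissive 1 and 2 and nonpermissive 1 and 2, with open symbols for lists without a peak and the distance from the gene start under each gene. The Atoh1 region 94.0 kb away reaches 17.6 in permissive 2, and the Notch1 region 27.9 kb away is lower in both permissive libraries.

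Notch genes were read as 2 lists. Ligands and modifiers of the hair cell lineage (Dll1, Dll3, Dll4, Jag2, Mfng and Dlk2) had 11 permissive-only of 81 regions (13.6%) and 4 nonpermissive-only (4.94%), and RNA of 4 of the 6 was higher. Among these 4, Jag2 (log2 fold change 3.97) had 0 permissive-only and 1 nonpermissive-only region. Dll1, the main Notch ligand of young hair cells, had 5 permissive-only regions, the tallest 4547 bp from its start with 4.91 and 7.90 and acetylation in both permissive libraries alone. The region over its start was lower in permissive libraries, 1.67 and 2.32 against 3.14 and 6.89 (log2 difference -1.31 ± 0.30, adjusted p = 0.0161). It was lost without permissive 1 or nonpermissive 2 and under median centring. Dll1 RNA was at 103, 83.7 and 93.8 CPM in permissive and 6.70, 2.85 and 50.9 CPM in nonpermissive samples, groups that did not overlap, but missed the threshold (adjusted p = 0.0923). At Dll3 the region over the start (chr7:28301278-28302515) had 2.54 and 7.83 and was open in both controls too. Dll3 RNA was at 50.1, 22.1 and 29.5 CPM in permissive and 0.279, 0 and 2.88 CPM in nonpermissive samples.

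Notch pathway genes of supporting cells, a list of receptors, effectors and the ligand Jag1, stood at 16 permissive-only and 16 nonpermissive-only of 326 regions (4.91% each), with RNA of 5 of 13 genes lower and none higher. Notch1, the receptor, had no permissive-only and 6 nonpermissive-only regions, 3 of them inside the gene and all 6 open in both controls. The tallest, 1797 bp from its start (chr2:26501694-26502025), had 4.36 and 5.69. At chr2:26475377-26475968 inside Notch1 permissive libraries had 2.14 and 3.36 and nonpermissive libraries 5.29 and 7.33, a log2 difference of -1.30 ± 0.33 (adjusted p = 0.0275), which no leave-one-out fit kept. Notch1 RNA was at 64.8, 77.3 and 51.4 CPM in permissive and 496, 105.1 and 223 CPM in nonpermissive samples (log2 fold change -2.09 ± 0.52, adjusted p = 0.0155), and its highest adjusted p without 1 sample was 0.0910. Jag1, the ligand of supporting cells, had 3 permissive-only regions and 1 nonpermissive-only, although its RNA was lower (log2 fold change -2.59 ± 0.38). The region 84 bp from its start was open in all lists, with acetylation in all 6 libraries. Of the effectors, Hes1 had 4 permissive-only and 2 nonpermissive-only regions and lower RNA (adjusted p = 0.032, up to 0.0983 without 1 sample). Hey1 had none of either class and lower RNA (adjusted p = 0.0219, up to 0.0856 without 1 sample). Hey2 had none either, and RNA that missed the threshold. Hes5, a direct Notch target, had its start open in all 4 ATAC lists (1.99, 2.93, 2.99 and 2.87) and acetylated in both controls and no DAPT library. Hes5 RNA was at 2.48, 21.1 and 1.62 CPM in permissive and 2.23, 0 and 1.92 CPM in nonpermissive samples, a difference that missed the threshold.

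Markers of the supporting cell fate were close to the background in both classes. Pillar and Deiters cell markers had 3% permissive-only and 4% nonpermissive-only of 400 regions, with RNA of 10 of 20 genes lower and 1, Cryab, higher. Gjb2, a gap junction connexin, had 4 nonpermissive-only and no permissive-only region, and the regions 4638 and 1195 bp from its start were acetylated in both nonpermissive and no permissive library. Gjb2 RNA was at 29.3, 77.7 and 74.8 CPM in permissive and 1117, 1049 and 876 CPM in nonpermissive samples. Prosensory and general supporting cell markers had 3.76% and 3.61% of 638 regions. Within that list Tecta stood out by the region over its start (chr9:42399866-42400223), with 2.46 and 4.11 in nonpermissive libraries, a peak in both controls, and H3K27ac in all 4 nonpermissive and control libraries and in no permissive one. Tecta RNA was at 117, 238 and 152 CPM in permissive and 8691, 3371 and 4414 CPM in nonpermissive samples (log2 fold change -5.02 ± 0.54, adjusted p = 9.63e-05). Sox2, the factor that marks the prosensory domain, had 1 permissive-only and 3 nonpermissive-only regions around a start open in all lists, and its RNA missed the threshold. Cdkn1b, a cell cycle inhibitor, had neither class of region, and its RNA was lower (adjusted p = 0.0257, up to 0.121 without 1 sample). Eya1, a cofactor of the prosensory domain, had 7 permissive-only regions and 1 nonpermissive-only, with RNA that missed the threshold. Collagen and other matrix genes had 3.92% and 5.23% of 306 regions, and Hippo and AP-1 genes 1.90% and 5.06% of 316. In the latter list, Tead1 (5), Atf3 (3) and Jun (2) had the most nonpermissive-only regions, and RNA of 6 of 16 genes was lower, namely Yap1, Wwtr1, Fos, Jun, Junb and Atf3.

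Markers of other cell types varied too. Spiral ganglion neuron markers had 6.25% permissive-only and 2.68% nonpermissive-only of 224 regions, and glia markers 6.10% and 1.83% of 164. Summed TPM of the 11 neuron markers was 85.5 to 292 in permissive, 16.1 to 55.4 in nonpermissive and 16.04 to 54.3 in control samples. Neurod1, Neurog1 and Prph were at 0 in all permissive samples. Of the 11, 3 were at 0 in all nonpermissive and 3 in all control samples as well. RNA of Nefl (adjusted p up to 0.0953 without 1 sample), Nefm and Snap25 was higher. For the 9 glia markers summed TPM was 35.3 to 140 in permissive and 125 to 504 in nonpermissive samples. Mesenchyme markers summed to 124 to 773 in permissive and 1503 to 2129 TPM in nonpermissive samples, with 3.14% and 1.26% of 159 regions, and RNA of 3 of 11 genes lower and 1 higher. Endothelial markers had 4.66% and 2.12% of 236 regions, blood markers 1.35% of 74 in both classes, and melanocyte and stria markers 3.07% and 3.51% of 228. Blood markers summed to 51.8 to 254 TPM in permissive and 16.8 to 72.0 TPM in nonpermissive samples, with Hbb-bs and Hba-a1 at 0 in permissive samples. In nonpermissive samples 1 blood marker was at 0. Melanocyte and stria markers summed to 6.67 to 9.88 and 56.6 to 159 TPM, with Dct, Tyr and Kcne1 at 0 in permissive samples. Of these markers, 1 was at 0 in nonpermissive and 2 in control samples. The part of such cells in the region classes was not tested.

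**Figure D3:**
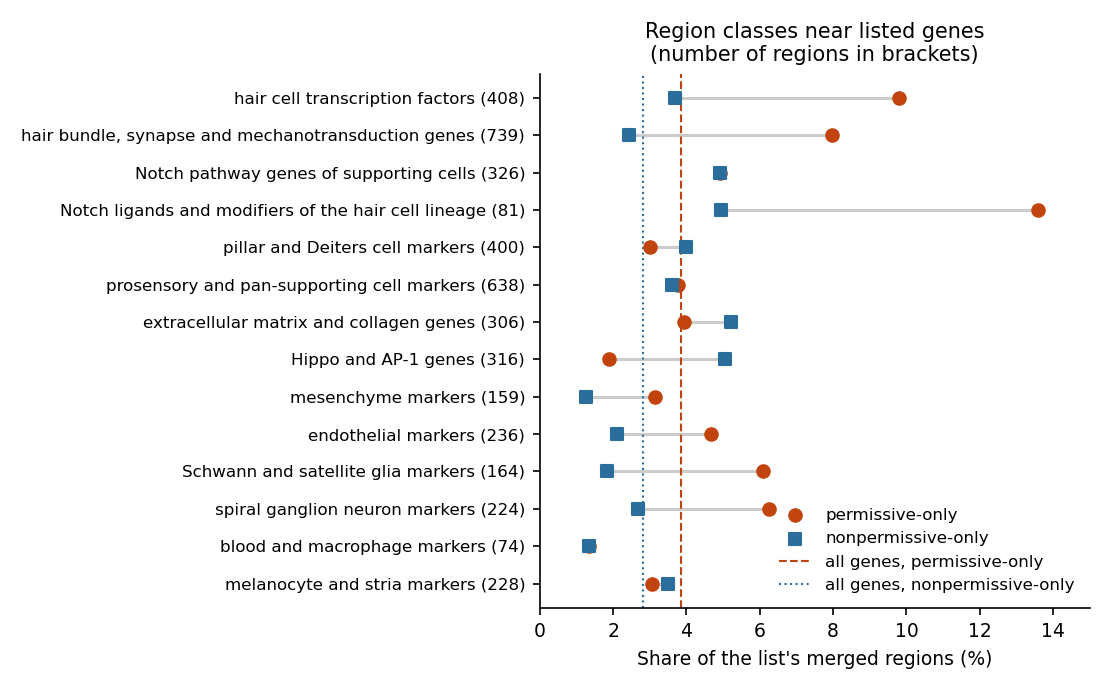
Share of the merged regions of each gene list (%, horizontal axis) that were permissive-only (circles) or nonpermissive-only (squares), with the shares over all genes as dashed and dotted lines. Hair cell transcription factors (9.80%), hair bundle genes (7.98%) and Notch ligands (13.6%) lie farthest to the right in permissive-only regions.

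The genes with the most permissive-only regions were not the classical hair cell genes. Nrxn3, a presynaptic neurexin, had 11 permissive-only of 96 regions and 1 nonpermissive-only one, and its RNA was higher (log2 fold change 2.79 ± 0.39, adjusted p = 0.000442). Nectin1, an adhesion protein of the contact between hair cells and supporting cells, had 10 of 79, with higher RNA (3.85 ± 0.69). Cdh4, a classical cadherin, had 10 of 88 and RNA without a call (0.17 ± 0.38). Ube2h had 9, Celf2, Gsg1l, Traf3ip2 and Garem1 had 8, and Agap1, Foxp1 (7 of 157), Myo18b and Prkag2 had 7. Eya1 also had 7, and ties were broken by summed fold enrichment. Celf2 and Traf3ip2 had 4 nonpermissive-only regions as well. Of these 12 genes 11 were tested in RNA, and 4 were higher: Nrxn3, Nectin1, Gsg1l (adjusted p up to 0.0621 without 1 sample) and Prkag2. The most nonpermissive-only regions lay at Sema6a (8 of 82), a semaphorin, and Frmd4b (7 of 68). Notch1, Sipa1l1, Boc, Dnmt3a, Rasl11b, Gab1, Lrrc4, Mbnl2, Carmil1 and Pdgfa had 6 each. Carmil1 had 6 permissive-only regions too, Sema6a 5 and Mbnl2 4. RNA of 4 of these 12 was lower: Frmd4b (adjusted p up to 0.0902 without 1 sample), Notch1, Rasl11b and Mbnl2. Such genes also had many regions in all, 38 or more but for Notch1 with 26.

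Across all genes, the number of class regions went with the direction of RNA. RNA was higher in permissive cells for 841 (6.88%) and lower for 796 (6.51%) of the 12225 genes tested. Among genes with 0, 1, 2, 3, 4 and 5 or more permissive-only regions, 4.26, 9.42, 13.4, 18.5, 27.5 and 33.3% were higher, while 5.96, 7.98, 7.05, 8.68, 3.33 and 5.38% were lower. Over the same steps of nonpermissive-only regions, 4.08, 10.7, 15.1, 22.8, 25.0 and 30.8% were lower and 6.66, 7.69, 7.08, 8.77, 4.55 and 0% higher. The highest steps held 93 and 39 genes. The median number of all regions per gene also went from 6 to 54 and from 6 to 49 over these steps; its part was not tested. Genes with permissive-only regions and none of the other class were higher in 13.2% and lower in 4.25% of 2281, and those with nonpermissive-only regions alone were higher in 3.53% and lower in 14.2% of 1556. Read the other way, 492 of 841 higher genes (58.5%) had a permissive-only region, against 308 of 796 lower genes (38.7%) and 33.0% of all. A nonpermissive-only region was found for 29.4% of higher, 54.3% of lower and 27.1% of all genes. Of the genes nearest to any permissive-only region 12.2% were higher, and 7.93% without permissive 1; of those nearest to any nonpermissive-only region 13.1% were lower, and 8.51% and 8.38% without nonpermissive 1 and 2. Most genes beside a region of either class had no RNA call.

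**Figure D4:**
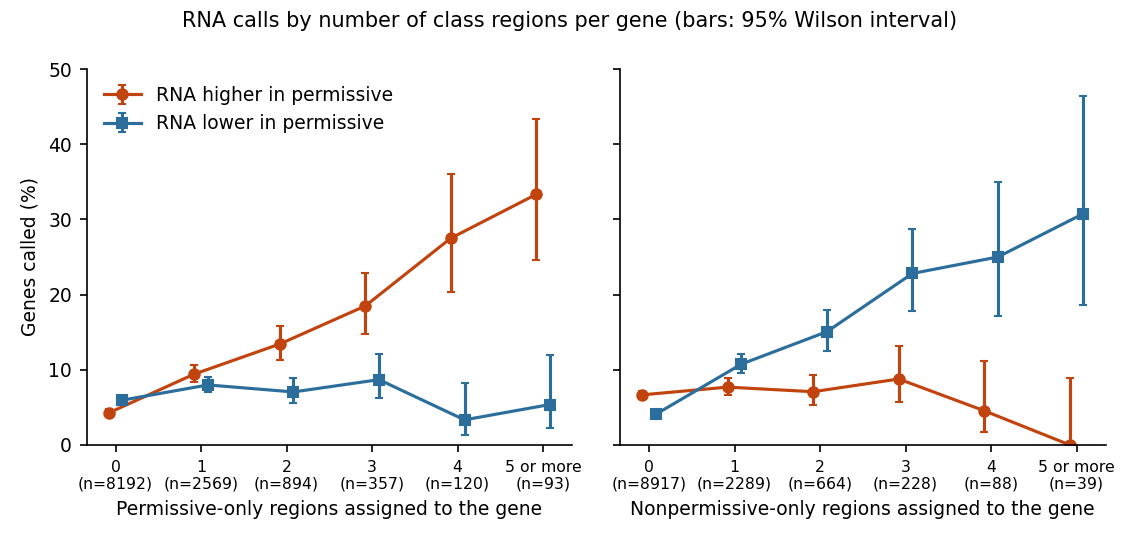
Share of genes called higher (circles) or lower (squares) in permissive RNA (%, vertical axis) by the number of permissive-only (left) or nonpermissive-only regions (right) assigned to the gene, with 95% Wilson intervals and the number of genes below each step. The share higher goes from 4.26% to 33.3% on the left and the share lower from 4.08% to 30.8% on the right.

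The tallest permissive-only regions lay 12269 bp or more from a gene start, among the first 10. Ranked by the lower of both fold enrichments, the first permissive-only region (chr5:15850101-15850869) lay 83822 bp from Cacna2d1, a calcium channel subunit, with 9.13 and 22.3, a peak in control 2 and acetylation in both permissive libraries alone. The others of the first 10 included regions 27323 bp from Rbm24 (9.01 and 17.3), an RNA-binding protein of hair cells, 16541 bp from Pcdh8 (8.58 and 22.5), and inside Slc9a2, Ank3 and Cdh23. Rbm24 and Pcdh8 RNA was higher (log2 fold changes 5.68 and 5.36). The first nonpermissive-only region (chr4:72105630-72106159) lay 94734 bp from Tle1, a corepressor, with 9.64 and 13.2, followed by regions at Etv6, Arf6, Sgms1 and Zfp687. RNA of Tle1, Sgms1 and Gsn was lower among the first 10. In the 100 tallest of each class, H3K27ac was called at 98 and 58 permissive-only regions in permissive 1 and 2 and at 19 and 2 in nonpermissive 1 and 2. For the 100 nonpermissive-only regions it was 93 and 66 in nonpermissive and 27 and 24 in permissive libraries. Of these 100, control lists 1 and 2 held 100 and 98, and of the 100 permissive-only regions 23 and 15.

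In the 28132 regions open in all 4 lists, fold enrichment was tested with limma after quantile normalisation. It was higher in permissive libraries at 475 (1.69%) and lower at 320 (1.14%). At gene starts lay 4.63% of the higher, 10.6% of the lower and 44.5% of the other regions. Genes nearest to higher regions were higher in RNA in 20.1% and lower in 7.38%, and genes nearest to lower regions were higher in 5.03% and lower in 22.1%. The 6 higher regions with the smallest adjusted p had Pex2, Arid1b, Fam241a, Dpp10, Cobl and Zeb2 as nearest genes. Of these, Fam241a (25743 bp) and Cobl (41205 bp) were within 100 kb, and the others 176000 to 1139772 bp away. The 6 lower regions lay inside Efnb2, an ephrin ligand, at the start of Ccser2, 44031 bp from Zfp648, and 130943 to 225195 bp from Tmem229a, Trib2 and Smc2. The log2 difference was 2.33 ± 0.31 near Pex2 and -1.99 ± 0.30 near Trib2. In the region nearest to Arid1b permissive libraries had 7.96 and 27.5 and nonpermissive libraries 2.74 and 4.12. Without scaling between libraries no region passed, and 44 and 19 had an unadjusted p under 0.05. With 1 library left out, the lone library of its group is assumed to vary like the other group. The counts were then 20 and 78 without permissive 1, 245 and 259 without permissive 2, 261 and 75 without nonpermissive 1, and 225 and 58 without nonpermissive 2.

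Promoters were few among the classes, but their RNA and motifs could be read directly. Of 32619 promoter windows, 217 (199 genes) overlapped a permissive-only and 205 (198 genes) a nonpermissive-only region. Among genes with a tested RNA, 23 of 59 with a permissive-only promoter were higher (39.0%) and 3 lower, Nfix, Col13a1 and Bmp6. Of 70 with a nonpermissive-only promoter, 17 were lower (24.3%) and 8 higher. Over all promoters 6.73% were higher and 6.17% lower. The promoters printed above had the following values. Nhlh1 had fold enrichments of 5.10 and 6.48 and RNA of 42.1, 9.04 and 13.3 CPM in permissive and 0, 0.571 and 0 CPM in nonpermissive samples. Sucnr1 had 3.55 and 15.3, and RNA of 3.51, 1.67 and 9.70 CPM against 0 in all nonpermissive samples. Rph3a had 2.96 and 4.08, and RNA of 44.8, 20.8 and 28.7 CPM against 0.279, 0 and 0.320 CPM. Permissive and nonpermissive samples did not overlap for any of these 3 genes. On the other side, Tmem79 had 3.13 and 4.61 in nonpermissive libraries and RNA of 0.206, 1.34 and 0 CPM in permissive against 25.4, 11.99 and 21.8 CPM in nonpermissive samples. Ogn had 5.00 and 7.38, and RNA of 0.825, 1.34 and 1.21 CPM against 10.6, 24.6 and 7.04 CPM.

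Of the motifs reported here, searched on both strands of these 300-base windows, 1 E-box had intervals that did not overlap between the classes over the whole window. CAGATG was in 33.2% of permissive-only windows (95% Wilson interval 27.3 to 39.7%) and in 14.6% of nonpermissive-only windows (10.4 to 20.1%). The share was 10.4% in windows open in all lists, 22.3% in windows without a peak and 17.1% in all windows. Within 50 bases of the gene start CAGATG was in 12.4% (8.69 to 17.5%) of permissive-only and 5.85% (3.38 to 9.95%) of nonpermissive-only windows, and these intervals overlapped. With 1 window per gene the shares were 31.7% and 14.6%. Windows of neighbouring genes can still overlap in sequence, as for Gm38446 and Gm51645. The intervals treat all windows as independent and may be too narrow. The other E-box, CAGCTG, was in 23.5% and 22.4%, against 16.4% of all windows. Shares in permissive-only, nonpermissive-only and all windows were 10.6, 11.2 and 7.85% for TGANTCA (AP-1), 18.9, 22.9 and 14.6% for GGAATG (TEAD), 30.4, 30.2 and 25.4% for TGGGAA (RBPJ) and 28.1, 27.8 and 18.7% for ACAAAG (SOX). The RFX motif GTTGCCA had overlapping intervals in both classes. So had the GATA motif AGATAA. The same held for ATAATTAAT (POU4), AATCACNGC (GFI1) and the CTCF core motif. Mean GC content was 53.5% and 53.9% in both classes, 53.9% over all windows and 62.6% in windows open in all lists. A match is a description of letters in a window and not a bound site, and most class regions lie outside these windows.

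**Figure D5:**
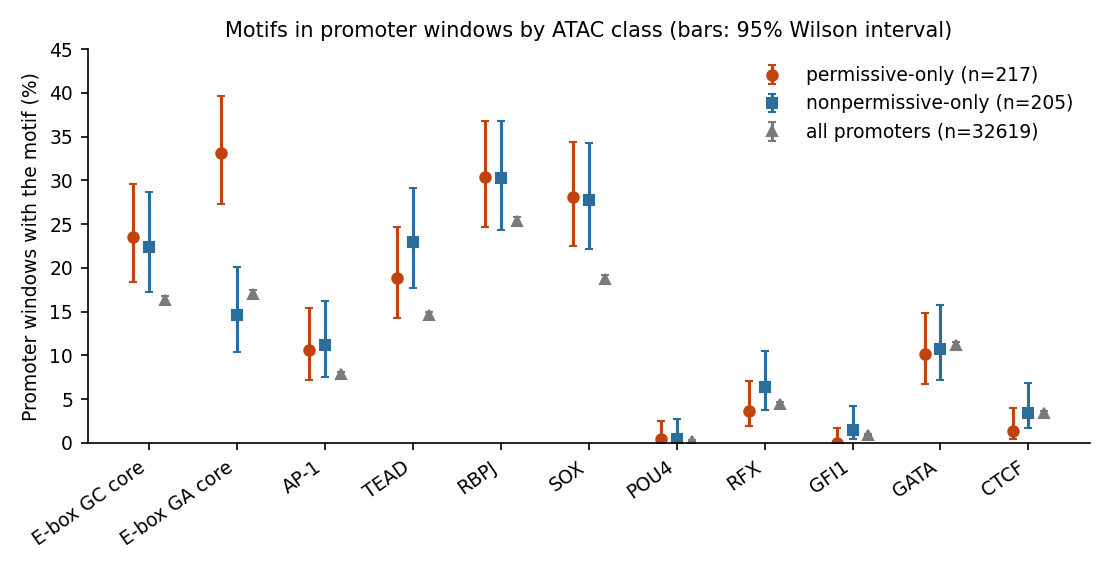
Share of promoter windows with each motif (%, vertical axis) for windows in permissive-only regions (circles), nonpermissive-only regions (squares) and all windows (triangles), with 95% Wilson intervals. The E-box with the GA core, CAGATG, has 33.2% against 14.6%, while the intervals of the other motifs overlap between both classes.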

How the data were processed

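The peak lists and RNA tables were used as deposited, 1 per sample. Per the submitters' processing notes STAR, RSEM, Bowtie2 and MACS2 were used on mm10; those notes state no role, version or setting for them. Each deposited ATAC list gives a fold enrichment ratio, a −log10 p-value and a −log10 q-value per peak, per sample and not pooled; the lowest deposited −log10 p-value was just above 2 in each ATAC list. The summit offset in these deposited lists is another value and was not tested. H3K27ac lists gave peak positions, with deposited ratio, −log10 p-value and −log10 q-value. The deposited RNA values are expected counts from the authors, which were rounded; deposited TPM was used for marker sums only.

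Peaks were merged across the 4 lists; the highest fold enrichment stood for a region and list. Genes were 21631 protein-coding RefSeq genes (GRCm38.p6), 4357 without a promoter entry, for which the nearer end of the gene was used. No genome was used, so the planned motif search in region sequence and the split into exons and introns were replaced by promoter windows and gene spans. limma 3.58.1 (trend, quantile normalisation) and edgeR 4.0.16 (quasi-likelihood, filterByExpr, TMM, 8 libraries of 48 h) gave two-sided p-values, adjusted by Benjamini-Hochberg, with 0.05 as threshold; DESeq2 1.42.0 was an alternative, R was 4.3.3 and Python 3.11.15. CPM is relative to the TMM-scaled library. Both fits were tested on simulated data. Deviations of same-numbered permissive and nonpermissive RNA samples correlated at r = 0.53, 0.14 and 0.13 over 9542 genes. Nonpermissive 3 with permissive 2 gave r = 0.15, and nonpermissive 2 with permissive 3 gave 0.078. These values therefore do not show how samples 2 and 3 pair. The main edgeR fit had no term for the replicate number, and a fit with that term is given as an alternative. Named genes were the 12 with the most regions of each class, up to 4 per list and class, and 16 always given; named regions were the 10 tallest per class and 6 per direction in limma. Cryab and the members named as exceptions, the printed promoters and the genes named beside them were chosen after their values were seen. The members, lists and tests were chosen with earlier results of these data known. Alternatives are given in the closing section. The result of 1 searched motif is not reported here.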

Additional observations from a re-analysis of the deposited data

How the results depend on the processing

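With peaks of −log10 q of at least 5, permissive-only and nonpermissive-only regions numbered 3660 and 2686, and genes beside them were higher in 19.1% and lower in 16.9%. The mean H3K27ac share over the libraries of the own group was 62.8% for permissive-only and 66.5% for nonpermissive-only regions. At this threshold gene starts held 4.92% and 8.08%, and limma called 5 higher and 2 lower of 12306. With equal list lengths gene starts held 7.14% of nonpermissive-only regions, and with peaks that cover at least 50% of a region 5.26% and 7.04%. Gene starts within 2 kb held 6.98% and 9.48%. Genes within 20 kb were higher in 14.8% and lower in 14.3%, and with DESeq2 in 15.6% and 16.9%. In limma, median centring gave 536 lower, no scaling 0 higher and 0 lower (44 and 19 at an unadjusted p under 0.05), and the replicate block 1178 higher and 837 lower. ATAC replicate differences correlated at r = 0.19 between groups, and fold enrichment at a Spearman rho of 0.606 and 0.621 for same-numbered against 0.556 and 0.576 for other libraries of both groups. With 2 pairs, whether the numbers pair the ATAC libraries is unknown. In RNA the replicate block gave 1063 higher and 1089 lower genes against 909 and 852, and of the 111 genes for which it was compared, it ended the call of Emilin2. CAGATG within 50 bases of the gene start stood at 12.4% and 5.85%, with overlapping intervals.

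Leaving out 1 ATAC library at a time gave 13044 to 92785 permissive-only and 8586 to 53275 nonpermissive-only regions, 7.93 to 11.8% higher and 8.38 to 12.8% lower genes, H3K27ac at 14.4 to 39.9% and 10.6 to 39.0%, gene starts at 3.57 to 5.89% and 3.77 to 10.3%, and limma counts of 20 to 261 higher and 58 to 259 lower. Counts of RNA calls without 1 sample were 624 to 835 higher and 591 to 787 lower. Choices of 1 window per gene and of left-out ATAC libraries for shares were made after seeing the data. Of the 34 limma regions named or at named genes all lost their call without scaling, and none changed direction under any alternative run. With 2 lists per group, depth unknown and weak peaks kept, absence of a peak does not show closed chromatin.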
